A study of Mus musculus with 9 samples.

Results

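The genes described here are 10 nuclear receptors for retinoids, steroids, lipids and related hormones: Rara, Rarg, Rxra, Rxrb, Nr3c1, Ppard, Nr1h2, Nr1h3, Thra and Vdr. They were taken by gene symbol from the 24532 genes left when the deposited transcripts were summed by gene. They were chosen by their measured levels and differences between the 3 tissues in these same libraries, so these values are given as a description, with no test. All 10 passed the filter on low counts, but Nr1h3 and Vdr passed through the lung libraries and had few reads elsewhere.

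Neutrophils, short-lived phagocytes of the innate immune system, had been sorted from bone marrow, peripheral blood or lung of wild-type C57BL/6 mice, with 3 biological replicates of each tissue and so 9 libraries. Every group had the same strain and genotype, and no treatment, age or sex is given in the sources used here. Neither the markers and gates of the sort nor the way lung tissue was dispersed is given, and whether a library pooled several mice is not stated. The p-values below therefore measure the spread between these samples.

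Nuclear receptors are transcription factors that a small lipid-soluble ligand switches between binding corepressors and binding coactivators. Retinoic acid receptors (Rara, Rarg), liver X receptors (Nr1h2, Nr1h3), Ppard, Thra and Vdr bind DNA with a retinoid X receptor (Rxra, Rxrb) as partner. The glucocorticoid receptor (Nr3c1) waits in the cytoplasm in a chaperone complex and acts mostly as a homodimer. In the neutrophil lineage retinoic acid receptor alpha is best known as a regulator of granulocyte maturation, and glucocorticoids are known to release neutrophils from the marrow and lengthen their lives.

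Total counts ran from 42045548 to 56796219 per library, and 3 reads, used here as the detection floor, corresponded to 0.0528 to 0.0714 CPM, in which each count is divided by the size of its library. Counts of blood and lung libraries were 1.87 to 1.90 times the expected counts in the authors' separate files of the same libraries. The summed level of 13 neutrophil markers was 95138 to 137253 CPM in marrow, 30341 to 43737 CPM in blood and 21114 to 38970 CPM in lung. Replicate 3 stood apart in each tissue. Lung replicate 3 had a first principal component of 30.3, against 172 and 147 in the other lung libraries, and blood replicate 3 had -119.8, against -50.4 and -43.0. On component 3 marrow replicate 3 stood at -86.3, against 34.15 and 14.1. Erythroid, B-cell, and T and NK markers summed lowest in replicate 3 of all 3 tissues. B-cell markers were at 62.2 CPM in lung replicate 3 (467 and 528 CPM in the others) and 87.4 CPM in blood replicate 3 (473 and 478 CPM), and erythroid markers at 1765 CPM in marrow replicate 3 (8681 and 9463 CPM). In such bulk samples, fewer cells of a type and less RNA per cell cannot be told apart.

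Rara, which encodes retinoic acid receptor alpha, was highest in blood (chr11:98937696-98974942 of mm10). Its level, in CPM after TMM scaling, was 214, 262 and 263 in marrow replicates 1 to 3, 667, 685 and 996 in blood and 121, 137 and 159 in lung. The tissues did not overlap, and blood replicate 3 was the highest of all. The log2 difference was 1.67 ± 0.22 (SE, n = 3 per tissue) for blood minus marrow, -2.50 ± 0.22 for lung minus blood and -0.83 ± 0.21 for lung minus marrow. Without blood replicate 3 the first 2 were 1.51 and -2.25, and without lung replicate 3 lung minus blood was -2.64. In the authors' expected counts for the same blood and lung libraries the gene held 384, 457 and 582 TPM, a transcript measure scaled to length and depth, in blood and 67.6, 80.2 and 65.0 TPM in lung.

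Most Rara signal was assigned to 1 of 4 annotated transcripts, the one that begins at position 98960471, well inside the gene. It took 72.0% to 90.4% of the gene's FPKM (fragments scaled to transcript length and library size) in every library. The transcript beginning at 98937718 took 4.01%, 9.99% and 2.64% in marrow, 22.4%, 11.2% and 9.30% in blood and 11.9%, 19.1% and 13.1% in lung. All lung libraries lay above marrow, and blood overlapped both. Reads assigned to the transcript of the inner start numbered 7604, 11374 and 9269 in marrow, 21707, 30848 and 36930 in blood and 5545, 5100 and 5087 in lung.

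Rarg, which encodes retinoic acid receptor gamma, had the same order of tissues at a lower level (chr15:102234938-102257522). It stood at 53.1, 65.9 and 77.9 CPM in marrow, 87.9, 87.3 and 119 CPM in blood and 33.2, 29.4 and 27.1 CPM in lung, again with no overlap. The log2 difference was 0.58 ± 0.19 for blood minus marrow, -1.71 ± 0.19 for lung minus blood and -1.13 ± 0.19 for lung minus marrow. Since Rara differed more between tissues, Rarg's share of the summed Rara and Rarg FPKM was lowest in blood, at 12.98% ± 0.58 (SD, n = 3), against 23.7% ± 1.79 in marrow and 20.5% ± 3.88 in lung.

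Of Rarg's pair of annotated transcripts, the one with the inner start was assigned nearly all reads. The transcript starting at 102246500 had 1092 to 5269 reads per library and 98.8% or more of the FPKM, while the one starting at 102257522 had 0 to 24 reads. The 100 bases before each start, on the gene's own (minus) strand, are shown because the reads assigned to these transcripts divided so unevenly. They come from RefSeq (GRCm38.p6), with CG dinucleotides in capitals.
Rarg outer start, chr15:102257523-102257622: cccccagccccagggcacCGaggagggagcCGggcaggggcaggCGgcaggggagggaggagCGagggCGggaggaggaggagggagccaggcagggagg
Rarg inner start, chr15:102246501-102246600: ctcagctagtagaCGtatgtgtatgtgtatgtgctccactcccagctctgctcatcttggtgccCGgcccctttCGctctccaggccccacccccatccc
The region before the outer start was 79.0% G or C with 5 CG dinucleotides, and that before the inner start 60.0% with 3. Use of each promoter was not measured, since reads were assigned to transcripts and not to start sites. The median of all 32851 promoters in the table was 55.0% and 3 in the same window.

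**Figure D1:**
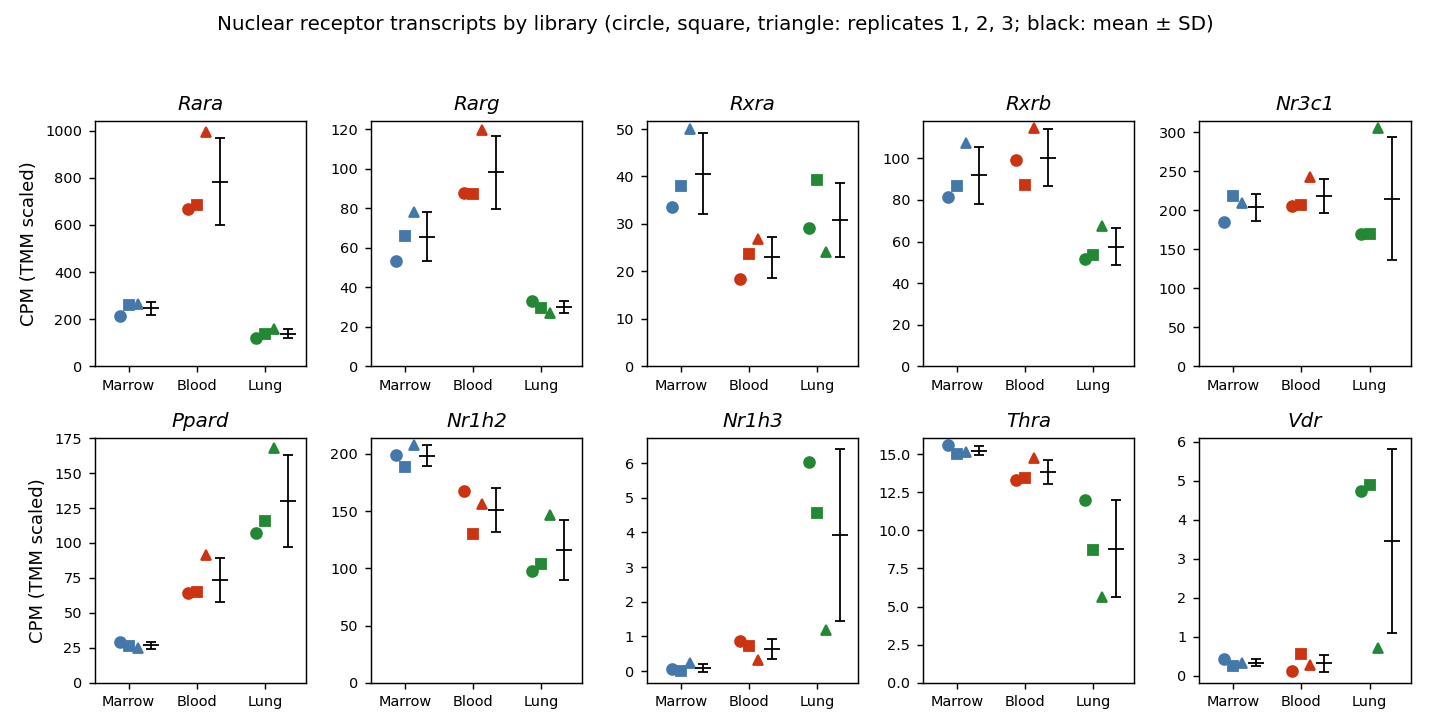
Level of each receptor gene in CPM after TMM scaling (linear y axes, each with its own range) in marrow, blood and lung; symbols are the 9 libraries and black marks the mean ± SD of 3. Rara stood at 667 to 996 CPM in blood and 121 to 263 CPM in the other tissues, while Ppard climbed from 24.9 to 29.4 CPM in marrow to 107 to 168 CPM in lung.

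The retinoid X receptors are the shared partners. Rxrb (chr17:34031812-34038403) was the main one at every site, at 81.7, 86.5 and 107 CPM in marrow, 99.2, 87.4 and 115 CPM in blood and 51.4, 53.4 and 67.6 CPM in lung. Marrow and blood overlapped, and all lung libraries lay below them (lung minus blood -0.81 ± 0.17). Rxra (chr2:27677201-27763319) was at 33.6, 38.0 and 50.04 CPM in marrow, 18.3, 23.6 and 26.9 CPM in blood and 29.1, 39.3 and 24.1 CPM in lung. It was lower in blood than in marrow in all libraries (-0.82 ± 0.23), and lung overlapped both.

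Per length, Rxra made up 17.2% ± 1.00 of the summed Rxra and Rxrb FPKM in marrow, 9.62% ± 1.65 in blood and 20.7% ± 5.82 in lung. The summed FPKM of Rara and Rarg was 2.27 ± 0.23 times that of their partners in marrow, 6.11 ± 0.71 times in blood and 1.88 ± 0.04 times in lung (SD, n = 3). The ratio was 5.41, 6.08 and 6.83 in the blood libraries, all above the 1.83 to 2.53 of the 6 other libraries. Transcripts of Rxra divided unevenly between libraries: the one starting at 27709292 took 51.7% and 46.2% of the gene's FPKM in lung replicates 1 and 2 but 6.59% in replicate 3, and 0.08% to 44.4% in marrow.

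Nr3c1 encodes the glucocorticoid receptor (chr18:39410545-39487245). It stood at 184, 218 and 209 CPM in marrow, 205, 206 and 243 CPM in blood and 169, 169 and 305 CPM in lung, and every pair of tissues overlapped. Lung replicate 3 was the highest of all 9 libraries and the other lung libraries were the lowest. The log2 difference was 0.10 ± 0.24 for blood minus marrow, -0.02 ± 0.24 for lung minus blood and 0.08 ± 0.24 for lung minus marrow. Without lung replicate 3 the last 2 were -0.40 and -0.31, so the near-zero values rested on that library. In FPKM the marrow libraries (26.5, 30.2 and 24.9) lay below those of blood (33.8, 39.4 and 38.8). The difference on log2(FPKM + 0.1) was 0.46, called by limma. FPKM was used without TMM scaling, and the median difference of all genes in that setting was 0.25, against -0.05 with TMM scaling. The ratio of Rara to Nr3c1 FPKM was 2.39 ± 0.10 in marrow, 7.01 ± 0.95 in blood and 1.34 ± 0.28 in lung.

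Ppard, a fatty acid-sensing receptor of the peroxisome proliferator-activated family, was ordered lung, blood, marrow (chr17:28232754-28301469). It was at 29.4, 26.2 and 24.9 CPM in marrow, 63.9, 65.0 and 91.4 CPM in blood and 107, 115 and 168 CPM in lung. The 3 tissues formed separate bands. The log2 difference was 1.45 ± 0.21 for blood minus marrow, 0.83 ± 0.21 for lung minus blood and 2.28 ± 0.22 for lung minus marrow. Lung minus blood was 0.57 without lung replicate 3 and 1.06 without blood replicate 3. In FPKM Ppard reached 0.93 ± 0.11 of the Rara level in lung, against 0.11 ± 0.02 in marrow and 0.09 ± 0.0024 in blood. The genes 1810013A23Rik and Mir5098, annotated within or across Ppard, held at most 20 reads in any library, against 973 to 6765 for Ppard.

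The liver X receptors sense oxysterols and switch on cholesterol export. Nr1h2 (liver X receptor beta, chr7:44549616-44553965) was at 199, 189 and 208 CPM in marrow, 167, 130 and 156 CPM in blood and 98.1, 104 and 146 CPM in lung. Marrow lay above both other tissues, which overlapped each other. The log2 difference was -0.39 ± 0.18 for blood minus marrow, -0.38 ± 0.18 for lung minus blood and -0.77 ± 0.18 for lung minus marrow.

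Nr1h3 (liver X receptor alpha, chr2:91184061-91195116) was near the floor outside the lung. It had 3, 0 and 9 reads in marrow, 40, 41 and 14 in blood and 332, 229 and 48 in lung, or 6.03, 4.56 and 1.19 CPM in lung against 0.32 to 0.87 CPM in blood. Fitted values were 2.63 ± 0.98 for lung minus blood (3.02 without lung replicate 3) and 5.30 ± 1.15 for lung minus marrow on the log2 scale, the last of which depends on the prior count. It made up 0.05% ± 0.06 of the summed liver X receptor FPKM in marrow, 0.42% ± 0.20 in blood and 3.88% ± 2.80 in lung. The transcript that starts at 91195116 had 281, 126 and 8 reads in lung and 0 to 3 reads in every other library. The one that starts at 91195035 had 51, 103 and 40 reads in lung and 37, 39 and 14 in blood.

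Thra, the thyroid hormone receptor alpha, was low in all 3 tissues (chr11:98741785-98769006). It stood at 15.6, 15.0 and 15.1 CPM in marrow, 13.3, 13.4 and 14.8 CPM in blood and 12.003, 8.71 and 5.66 CPM in lung, with lung replicate 3 lowest. The log2 difference was -0.14 ± 0.24 for blood minus marrow, -0.65 ± 0.24 for lung minus blood and -0.79 ± 0.24 for lung minus marrow, and without lung replicate 3 the last 2 were -0.45 and -0.60. The longer Thra transcript overlaps the oppositely oriented clock gene Nr1d1 by 1075 bases. Nr1d1 had 42, 26 and 36 reads in marrow, 167, 110 and 12 in blood and 554, 371 and 30 in lung, against 228 to 773 for Thra. The labels name both a standard and a stranded library kit and the counting is not stated to use strand, so reads of the shared stretch may belong to either gene.

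Vdr, the vitamin D receptor (chr15:97854427-97908296), was near the floor outside the lung, like Nr1h3. It had 18, 13 and 13 reads in marrow, 6, 32 and 12 in blood and 261, 245 and 29 in lung, or 4.74, 4.88 and 0.72 CPM in lung. Lung replicate 3 lay close to the 0.13 to 0.56 CPM of blood, although the tissues did not overlap. The log2 difference for lung minus blood was 3.41 ± 0.83, and 3.85 without lung replicate 3.

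Some marker lists of other cells were also higher in lung, and the lists ordered its libraries in different ways. Fibroblast and smooth muscle markers (10 genes) summed to 1666, 1397 and 177 CPM in lung replicates 1 to 3, 56.0 to 98.9 CPM in blood and 131 to 291 CPM in marrow. Lung epithelium markers (12 genes) summed to 942, 309 and 114 CPM in lung, 28.6 to 44.3 CPM in blood and 57.2 to 128 CPM in marrow, and Sftpd and Scgb3a2 were at 0 in blood. Endothelium markers (10 genes) summed to 119, 81.5 and 30.8 CPM in lung, 23.1 to 42.2 CPM in blood and 20.7 to 21.3 CPM in marrow. All of these lists ordered the lung libraries as Nr1h3 did. Monocyte markers (10 genes) had replicate 3 highest in lung, at 2595, 3267 and 3648 CPM. They summed to 1873 to 2452 CPM in blood and 1803 to 2369 CPM in marrow. In lung and blood most of that sum was Nr4a1, itself a nuclear receptor, at 2005, 2607 and 3001 CPM in lung. By edgeR, Nr4a1 alone of the 10 was higher in lung than in blood, and the median log2 difference was -0.61. The Nr4a1 call was lost without marrow replicate 1, any 1 blood library or lung replicate 2 (edgeR adjusted p up to 0.155). Platelet markers (8 genes) had replicate 3 highest in lung too, at 49.0, 44.0 and 56.7 CPM. They overlapped blood (46.8 to 83.5 CPM) and lay below marrow (103 to 182 CPM).

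Macrophage markers (17 genes) summed to 1787, 2070 and 1213 CPM in lung, 814 to 871 CPM in blood and 1055 to 1426 CPM in marrow, with Krt79 at 0 in every blood library. By edgeR, 11 of 17 were higher in lung than in blood and 0 lower. Dendritic cell and MHC class II markers (11 genes) summed to 2660, 1998 and 677 CPM in lung, 185 to 1219 CPM in blood and 72.6 to 160 CPM in marrow. Of that list 0 of 10 tested passed between lung and blood. The part of these other cells in the Nr1h3 and Vdr values was not tested.

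**Figure D2:**
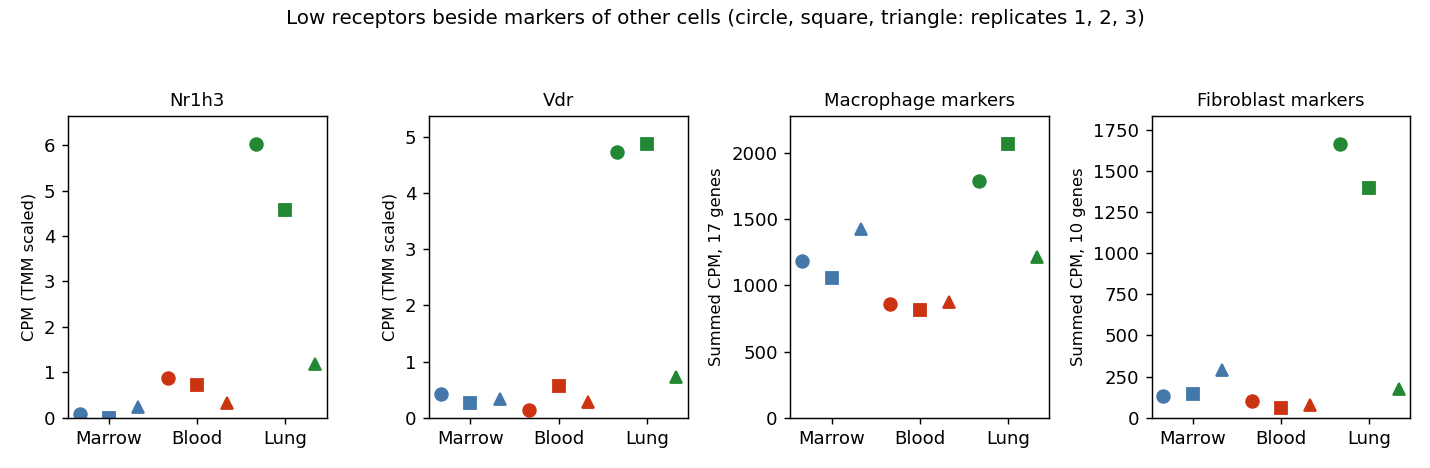
Nr1h3 and Vdr in CPM beside the summed CPM of 17 macrophage markers and of 10 fibroblast and smooth muscle markers, 1 symbol per library, linear axes from 0. Lung replicate 3 (triangle) was the lowest lung library in all 4 panels, at 1.19 and 0.72 CPM for the receptors against 4.56 to 6.03 and 4.74 to 4.88 CPM in the others.

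Ranked per length, the set was led by Nr1h2 in marrow (83.3 ± 5.90 FPKM, SD, n = 3), by Rara in blood (263 ± 49.2) and by Nr1h2 in lung (56.2 ± 0.73). Marrow continued with Rara (65.0 ± 5.70), Rxrb (31.1 ± 1.46), Nr3c1 (27.2 ± 2.69), Rarg (20.2 ± 2.14), Ppard (7.09 ± 1.23), Rxra (6.47 ± 0.75) and Thra (5.38 ± 0.59). Ppard, Rxra and Thra lay within their spread of each other there. In blood Nr1h2 (81.1 ± 5.07) was followed by Rxrb (44.4 ± 2.55), Rarg (38.9 ± 5.28), Nr3c1 (37.3 ± 3.03), Ppard (24.6 ± 3.97), Thra (6.26 ± 0.50) and Rxra (4.75 ± 0.97). Rarg and Nr3c1 did not differ beyond their spread. In lung Rara (42.6 ± 4.53), Ppard (39.2 ± 0.86) and Nr3c1 (32.4 ± 3.89) came next, ahead of Rxrb (22.6 ± 1.75), Rarg (11.2 ± 3.27) and Rxra (6.10 ± 2.46). Rara and Ppard were within their spread in lung. Nr1h3 and Vdr were last or next to last in each tissue, at 0.04 to 2.31 FPKM.

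Summed over the 10 genes, FPKM was 246 ± 8.35 in marrow, 500.5 ± 59.8 in blood and 217 ± 11.5 in lung. Rara alone made up 52.2% ± 3.55 of that sum in blood, against 26.4% ± 1.61 in marrow and 19.6% ± 1.15 in lung. The sums carry no TMM scaling. All genes had a median log2(FPKM + 0.1) difference of 0.25 for blood minus marrow and -0.09 for lung minus blood. For lung minus marrow it was 0.23.

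**Figure D3:**
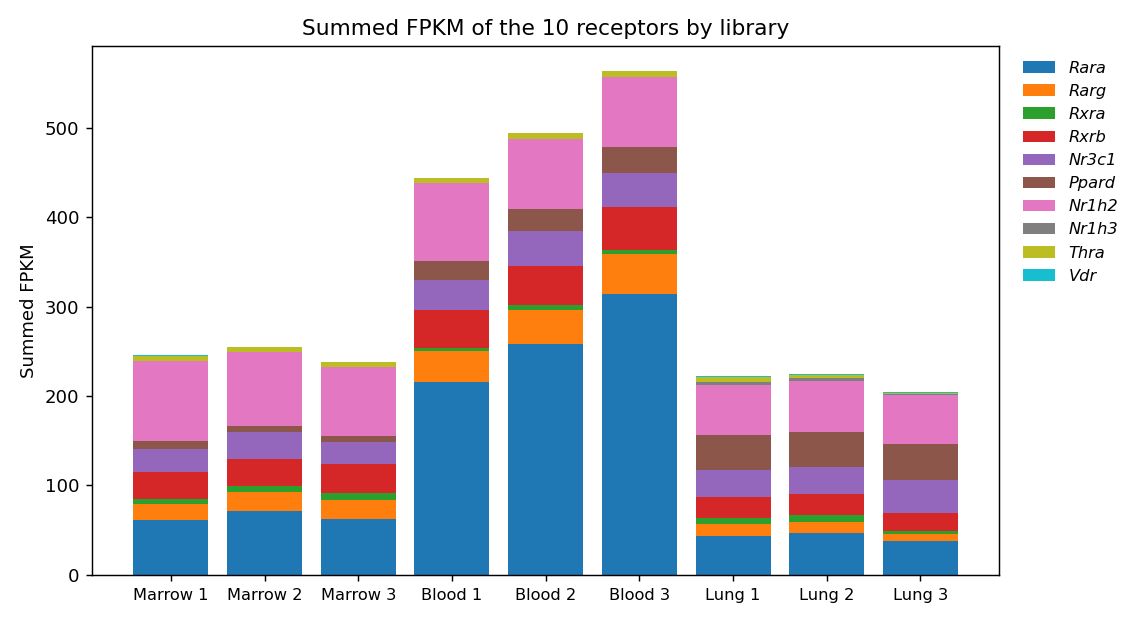
Stacked FPKM of the 10 receptor genes, without TMM scaling, in each of the 9 libraries (y axis from 0, 1 bar per library). The blood bars reached 444 to 563 FPKM and the others 204 to 254, and the Rara segment accounted for 48.7% to 55.8% of each blood bar.

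Of the 10 genes, edgeR called 3 between blood and marrow (Rara and Ppard higher in blood, Rxra lower), beside 21.4% of the 13510 genes tested, 8.34% higher and 13.1% lower. Between lung and blood it called 5 (Ppard and Vdr higher in lung, Rara, Rarg and Rxrb lower), beside 28.9% of all genes, 13.2% higher and 15.7% lower. Between lung and marrow it called 8 (Ppard, Nr1h3 and Vdr higher in lung, Rara, Rarg, Rxrb, Nr1h2 and Thra lower), beside 38.2%, 15.6% higher and 22.6% lower. Replicates of the 2 tissues had no overlap for 7, 7 and 8 of the 10 in the same order, beside 45.4%, 41.6% and 49.0% of all genes. These counts describe genes picked with their differences known, and nothing is read from them. The median log2 difference of the 10 was 0.11, -0.20 and -0.54, beside -0.05, 0.05 and 0.06 over all genes. Rxra's call was lost without marrow replicate 2 or 3 or blood replicate 1 or 2, leaving 2. Between lung and blood, the calls of Ppard, Rxrb and Vdr were each lost without at least 1 library. Between lung and marrow, those of Rara, Rxrb, Nr1h2, Thra and Vdr were each lost in the same way.

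The 3 comparisons share libraries, so a gene high in blood is higher in the first and lower in the second by construction. The rest of the transcriptome splits by direction in a way that depends on scaling: 39.0%, 45.6% and 40.9% of called genes were higher in the 3 comparisons after TMM scaling, and 52.6%, 55.9% and 59.3% after upper-quartile scaling. Upper-quartile scaling moved the median of all genes in lung minus marrow to 0.38. Of the members' differences it changed the sign of those near 0 (Thra and Vdr for blood minus marrow, to 0.01 and 0.09, and Nr3c1 for lung minus blood, to 0.12). It also ended the calls of Rxra for blood minus marrow (-0.66) and Thra for lung minus marrow (-0.46), and added that of Rarg for blood minus marrow (0.74).

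**Figure D4:**
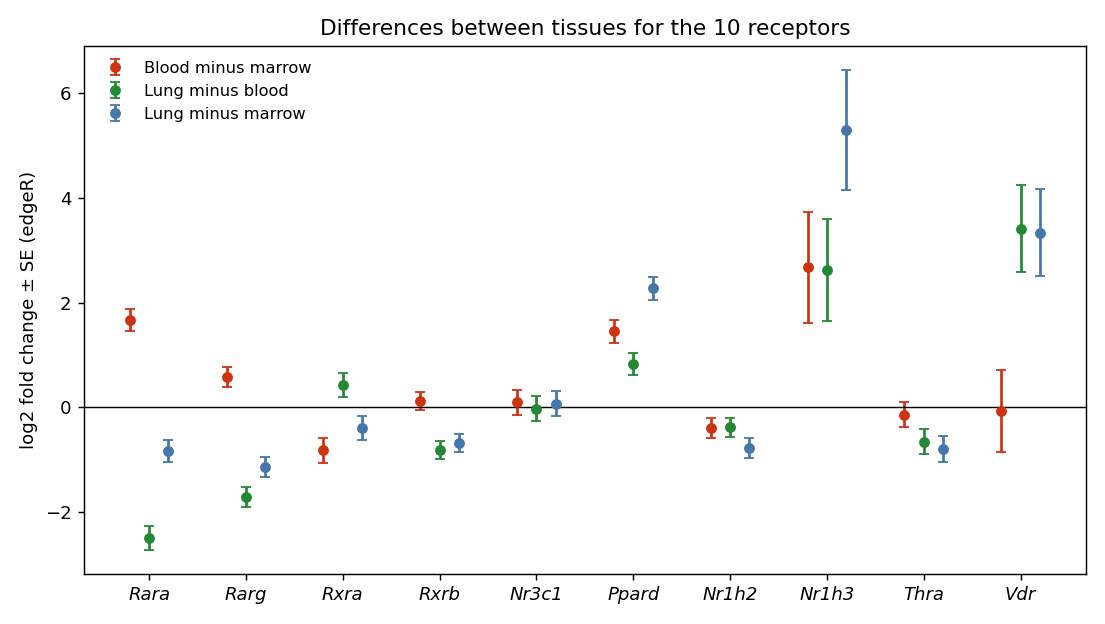
Log2 fold change of each receptor gene from edgeR in the 3 comparisons of tissues; bars are 1 SE. Rara lay at 1.67 and -2.50 in the comparisons that involve blood, and the points of Nr3c1 lay within 1 SE of 0.

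The genes whose pattern over the 9 libraries was most like that of Rara, among 7753 compared by Pearson correlation of log2 CPM, were Brat1 (r = 0.992), Relt (0.986) and Zbtb44 (0.985). Brat1 was at 22.9, 76.5 and 15.3 CPM in marrow, blood and lung, and Relt, a member of the TNF receptor family, at 115, 272 and 54.7 CPM. Among those most like Nr1h2 were Stk17b (0.986) and Cers6 (0.985), both highest in marrow. Cers6, a ceramide synthase, was at 499, 293 and 203 CPM. These correlations are descriptions, since the libraries share their tissue.

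The rest of the pathway was followed in 12 lists of 218 genes, of which 167 could be tested and 14 had no read in any library. They were tested by edgeR, with p-values adjusted over all genes by the Benjamini-Hochberg method. Between blood and marrow 10 were higher in blood and 26 lower (21.6% of those tested, beside 21.4% of all genes; median log2 difference -0.22). Lung against blood gave 42 higher and 22 lower (38.3%, beside 28.9% of all genes; median 0.37), and lung against marrow 46 higher and 35 lower (48.5%, beside 38.2%; median 0.45). The counts of each list stand beside the same shares of all genes. Leaving out blood replicate 2, blood replicate 3 or marrow replicate 3 cut the first count from 36 to 14, 17 and 21. The second went from 64 to 42 without blood replicate 3 and to 98 without lung replicate 3, and the third from 81 to 48 without marrow replicate 2. The macrophage, fibroblast, epithelial, endothelial and dendritic cell marker sums described above were higher in lung replicates 1 and 2 than in any blood or marrow library. In lung replicate 3 each lay within the range of blood or of marrow. The part of these other cells in the lung values of the pathway lists was not tested.

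**Figure D5:**
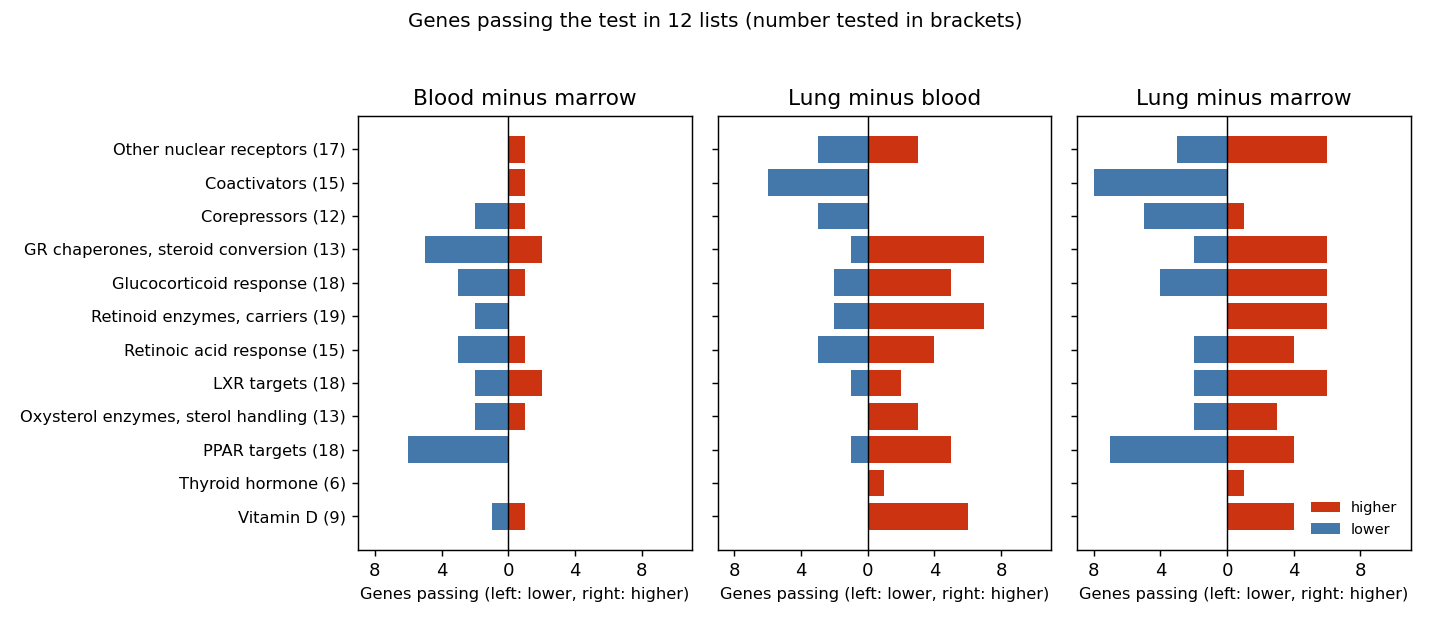
Number of genes passing edgeR's test (adjusted p under 0.05) in each of 12 pathway lists, lower to the left and higher to the right, for the 3 comparisons; brackets give the genes tested. Coactivators pointed to the left only in both lung comparisons (6 and 8 of 15), and vitamin D genes to the right only (6 and 4 of 9).

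Of 39 other nuclear receptors, 17 were tested and 9 had no read in any library. Rarb, the retinoic acid-inducible receptor of the Rara family, had 0, 4 and 0 reads in marrow, 0 in all blood libraries and 60, 24 and 0 in lung, and Ppara at most 20 in any library. Nr2f6, an orphan receptor, rose in blood from 4.14 ± 0.32 to 12.5 ± 1.33 CPM (SD, n = 3; log2 difference 1.59 ± 0.19, edgeR adjusted p = 0.000546), the only one to pass between blood and marrow. In lung the Nr4a orphan receptors led. Nr4a3 was at 63.4, 10.1 and 4.39 CPM in blood and 1064, 1429 and 2362 CPM in lung (5.96 ± 1.08, edgeR adjusted p = 0.00473). Nr4a2 stood at 5.85 ± 4.66 CPM in blood and 130 ± 63.8 CPM in lung (4.47 ± 0.72, edgeR adjusted p = 0.00283).

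A further 3 receptors fell from marrow to lung (Nr2c2, Esr2 and Esrra), although the calls of Nr2c2 and Esr2 were lost when single libraries were left out (Esr2 without any 1 of the 9, edgeR adjusted p up to 0.155). Esrra, an estrogen-related receptor tied to mitochondrial genes, went from 47.4 ± 6.12 to 24.6 ± 2.54 CPM (-0.94 ± 0.17, edgeR adjusted p = 0.00253). The receptors Pparg and Rora were higher in lung than in marrow, but lost their calls when single libraries were left out, with edgeR adjusted p up to 0.135 without 1 library. Pparg, itself a marker of alveolar macrophages and in the macrophage list above, was at 12.5, 11.98 and 1.49 CPM in lung, again lowest in replicate 3.

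Coactivators are recruited by ligand-bound receptors to open chromatin and start transcription. Of 15 tested, 6 fell and 0 rose from blood to lung, and 8 fell and 0 rose from marrow to lung. Those that fell from blood to lung were Ncoa3, Ncoa6, Med1 and Ep300, and Kmt2d and Nsd1, named after their values were seen. The acetyltransferase Ep300 held 483 ± 2.89 CPM in marrow and 475 ± 42.7 CPM in blood but 121 ± 29.4 CPM in lung (lung minus blood -1.98 ± 0.20, edgeR adjusted p = 0.000423). Ncoa3, a p160 coactivator, went from 303 ± 31.5 CPM in blood to 109 ± 16.4 CPM in lung (-1.47 ± 0.16, edgeR adjusted p = 0.000537). Med1, the Mediator subunit that binds nuclear receptors, was at 60.7 ± 7.54 and 23.9 ± 1.95 CPM (-1.34 ± 0.15, edgeR adjusted p = 0.000571). These 3 falls were called in every alternative run. The call of Ncoa6 was lost without blood replicate 3 (edgeR adjusted p = 0.0542).

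Corepressors, which silence targets of unliganded receptors, gave 1 rise and 2 falls of 12 between marrow and blood, 3 falls from blood to lung and 1 rise and 5 falls from marrow to lung. The histone deacetylase Hdac3 fell from 28.8 ± 2.08 CPM in marrow to 15.5 ± 2.11 CPM in lung (-0.89 ± 0.14, edgeR adjusted p = 0.00114), and Tbl1xr1, an exchange factor for corepressor complexes, from 159 ± 21.0 to 77.3 ± 19.0 CPM (-1.04 ± 0.20, edgeR adjusted p = 0.00406). Both of these calls were kept in every alternative. Hdac3 lost its call in 13 of 18 alternatives between blood and marrow and in 18 of 19 between lung and blood. Sin3a lost that between lung and marrow in 15 of 18.

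The glucocorticoid receptor's own transcript had edgeR differences within 1 SE of 0, but those with lung rested on lung replicate 3. Genes that fold the receptor or convert its ligand moved between tissues. Of 13 tested, 2 rose and 5 fell from marrow to blood, and 7 rose and 1 fell from blood to lung. Hsd11b1, the enzyme that regenerates active corticosterone inside cells, fell from 133 ± 18.3 CPM in marrow to 9.39 ± 0.90 CPM in blood (-3.82 ± 0.19, edgeR adjusted p = 1.5e-05) and stood at 35.5 ± 6.33 CPM in lung (lung minus blood 1.92 ± 0.17, edgeR adjusted p = 0.000247). H6pd, which supplies that enzyme with NADPH, was highest in blood and lowest in lung, at 49.8 ± 5.84, 75.7 ± 20.4 and 25.9 ± 3.26 CPM in marrow, blood and lung (lung minus blood -1.55 ± 0.21, edgeR adjusted p = 0.00114).

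Among chaperones, Hspa4 rose from 62.3 ± 12.5 CPM in blood to 174 ± 34.4 CPM in lung (1.48 ± 0.21, edgeR adjusted p = 0.00153). Hsp90ab1, which holds the unliganded receptor, was at 434 ± 27.7, 192 ± 32.1 and 470 ± 165 CPM in marrow, blood and lung (lung minus blood 1.29 ± 0.27, edgeR adjusted p = 0.00764). Its fall from marrow to blood lost its call without blood replicate 2 or 3, with an edgeR adjusted p of up to 0.0652.

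Glucocorticoid-responsive genes did not move as 1 block. Of 18 tested, 1 rose and 3 fell from marrow to blood, 5 rose and 2 fell from blood to lung, and 6 rose and 4 fell from marrow to lung. Zbtb16 rose from 20.9 ± 2.91 CPM in marrow to 70.3 ± 12.1 CPM in blood (1.75 ± 0.28, edgeR adjusted p = 0.00296). Anxa1, the anti-inflammatory annexin, fell from 2642 ± 428 to 637 ± 106 CPM (-2.05 ± 0.30, edgeR adjusted p = 0.00181). The metallothionein Mt1 rose from 2.14 ± 0.98 CPM in blood to 39.2 ± 22.8 CPM in lung (4.20 ± 0.65, edgeR adjusted p = 0.00232). The decoy receptor Il1r2 went from 837 ± 820 to 6073 ± 2503 CPM (2.86 ± 0.67, edgeR adjusted p = 0.0125), a call lost without blood replicate 3 (edgeR adjusted p = 0.0565). Tsc22d3 and Cebpd were the 2 that fell from blood to lung, named after their values were seen.

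Of 19 tested retinoid enzymes and carriers, 2 fell from marrow to blood, and 7 rose and 2 fell from blood to lung (Rdh5 and Rdh10, named after their values were seen). The 2 that fell in blood were neighbouring retinol dehydrogenase genes on chromosome 12. Rdh12 was at 410 ± 103 CPM in marrow, 114 ± 24.6 in blood and 736 ± 232 in lung (blood minus marrow -1.85 ± 0.29, edgeR adjusted p = 0.00271; lung minus blood 2.69 ± 0.30, edgeR adjusted p = 0.000563). Rdh11 was at 60.3 ± 10.7, 12.7 ± 1.54 and 122 ± 48.6 CPM (-2.25 ± 0.27, edgeR adjusted p = 0.000674; 3.27 ± 0.29, edgeR adjusted p = 0.000242). They are related genes, and how the authors' counting shared reads between them is not stated. Fabp5, a fatty acid-binding protein that can carry retinoic acid, rose from 16.1 ± 1.90 to 25.8 ± 1.36 CPM in lung (0.68 ± 0.16, edgeR adjusted p = 0.0137), a call lost without blood replicate 1 or 2 or lung replicate 2 (adjusted p up to 0.0848).

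Retinoic acid receptor partners bind best to direct repeats of a hexamer. Promoters in the RefSeq table (GRCm38.p6, from 250 bases before to 50 after each start) were searched on both strands for 2 hexamers of the form NGNTNA, in which the N are in turn A or G, G or T, and C or G, in the same orientation and 5 bases apart. The repeat occurred in 0.323% of all 32851 promoters, in 2 of 222 promoters of the listed genes and in 0 of 15 promoters of the receptor genes themselves. The table held 8 of the 10 receptors (not Nr3c1 or Thra, and not the Rara start at 98960471) and 166 of the 218 listed genes. Both listed matches were in classical retinoic acid targets, Rarb (positions -53 to -37 from its start) and Cyp26a1, which encodes an enzyme that degrades retinoic acid (-32 to -16, read on the opposite strand). The 100 bases before each start are shown on the gene's own strand with the hexamers in capitals, because they hold the repeat that the receptors are known to bind.
Rarb, minus strand, chr14:16575477-16575576: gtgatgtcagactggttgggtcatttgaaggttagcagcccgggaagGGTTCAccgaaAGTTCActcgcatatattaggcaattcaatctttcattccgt
Cyp26a1, plus strand, chr19:37697708-37697807: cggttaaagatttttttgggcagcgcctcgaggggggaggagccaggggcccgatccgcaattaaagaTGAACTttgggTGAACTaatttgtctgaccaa
Neither promoter matched at a spacing of 1 to 4 bases. Rarb had the few lung reads given above and none in blood, which allows up to 0.0655 to 0.0714 CPM per library there. Cyp26a1 had 66, 86 and 102 reads in marrow, 47, 20 and 52 in blood and 90, 44 and 47 in lung, and passed in 0 of the 3 comparisons by edgeR.

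Of 15 tested retinoic acid response genes, 1 rose and 3 fell from marrow to blood, and 4 rose and 3 fell from blood to lung. Itga4, an integrin chain, rose from 90.3 ± 14.9 CPM in marrow to 505 ± 30.5 CPM in blood (2.48 ± 0.26, edgeR adjusted p = 0.000295). Cebpe, the C/EBP factor of granule formation, fell from 84.6 ± 9.96 to 21.0 ± 4.33 CPM (-2.01 ± 0.25, edgeR adjusted p = 0.000782) and to 5.91 ± 2.01 CPM in lung (lung minus blood -1.83 ± 0.25, edgeR adjusted p = 0.0014). The transglutaminase Tgm2 was at 147 ± 89.9 CPM in blood and 3628 ± 1026 CPM in lung (4.62 ± 0.50, edgeR adjusted p = 0.000499). Hic1, a transcriptional repressor, went from 3.36 ± 2.0 to 32.6 ± 12.97 CPM (3.28 ± 0.57, edgeR adjusted p = 0.00362).

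Liver X receptor targets differed by gene and tissue. Of 18 tested, 2 rose (Abca1 and Apoe) and 2 fell (Smpdl3a, and Lpcat3, named after its values were seen) from marrow to blood. That was 22.2%, beside 21.4% of all genes. Abca1, the cholesterol exporter, went from 7.67 ± 1.66 CPM in marrow to 25.8 ± 7.09 CPM in blood (1.75 ± 0.27, edgeR adjusted p = 0.00218) and 41.3 ± 9.95 CPM in lung (lung minus marrow 2.43 ± 0.27, edgeR adjusted p = 0.000209). Apoe, a lipoprotein component that macrophages also make in quantity and that is in the macrophage list, was at 61.6 ± 16.4, 219 ± 25.6 and 224 ± 11.2 CPM (blood minus marrow 1.83 ± 0.20, edgeR adjusted p = 0.000399). The acid phosphodiesterase Smpdl3a fell from 198 ± 28.5 CPM in marrow to 49.3 ± 7.24 CPM in blood (-2.0 ± 0.18, edgeR adjusted p = 0.000127). From blood to lung 2 rose, Lpl and Mertk, and 1 fell (16.7%, beside 28.9% of all genes). The Lpl call was lost without any 1 blood library or lung replicate 1 or 2 (edgeR adjusted p up to 0.0847). Mertk, an engulfment receptor also in the macrophage list, was at 15.9 ± 13.3 CPM in lung and at most 0.49 ± 0.66 CPM elsewhere.

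Of 13 tested oxysterol and sterol-handling genes, 1 rose and 2 fell from marrow to blood, 3 rose from blood to lung, and 3 rose and 2 fell from marrow to lung. Soat1, which esterifies cholesterol, was lower in lung than in marrow, at 57.9 ± 13.3 against 119 ± 15.6 CPM (-1.04 ± 0.19, edgeR adjusted p = 0.00278).

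Of 18 tested targets of the peroxisome proliferator-activated receptors, 0 rose and 6 fell from marrow to blood, while 5 rose and 1 fell from blood to lung. The lipid droplet coat gene Plin2 was at 402 ± 79.2, 60.7 ± 9.90 and 197 ± 12.4 CPM in marrow, blood and lung (blood minus marrow -2.73 ± 0.20, edgeR adjusted p = 5.67e-05; lung minus blood 1.70 ± 0.19, edgeR adjusted p = 0.000602). The carnitine carrier Slc25a20 rose from 21.7 ± 4.82 CPM in blood to 85.6 ± 28.9 CPM in lung (1.98 ± 0.29, edgeR adjusted p = 0.00177). From marrow to lung 4 rose and 7 fell. The falls of Acsl1 and Cpt1a lost their calls in 14 and 15 of 18 alternatives, and the rise of Slc25a20 in 4. The fall of Plin2 was kept in all. Ppard itself was ordered differently from Plin2 and Slc25a20, with blood between marrow and lung.

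Thyroid hormone genes gave 1 pass of 6 in each lung comparison. That gene, the corepressor Hr, was at 0.21 ± 0.22 CPM in blood and 10.6 ± 5.12 CPM in lung (5.61 ± 1.00, edgeR adjusted p = 0.00398). Between blood and marrow 0 of 6 passed, and 1 had an unadjusted p under 0.05.

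Of 9 vitamin D genes, 6 rose and 0 fell from blood to lung. Cd14, a co-receptor for lipopolysaccharide, went from 159 ± 79.0 to 4372 ± 1799 CPM (4.78 ± 0.49, edgeR adjusted p = 0.00042), and the cell cycle inhibitor Cdkn1a from 36.0 ± 23.7 to 357 ± 64.1 CPM (3.31 ± 0.48, edgeR adjusted p = 0.00172). Vdr itself was at 0.32 ± 0.22 CPM in blood and 3.45 ± 2.36 CPM in lung. Cyp24a1, the enzyme that degrades active vitamin D, had 0 reads in all 9 libraries, which allows up to 0.0528 to 0.0714 CPM per library.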

How the data were processed

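Sorted neutrophils of 3 tissues were profiled by polyA RNA-seq (9 libraries, grouped by the labels). Per the submitters' processing notes, Bowtie2, STAR, StringTie 2.1.3b, RSEM and DESeq2 were used with mm10; the sources used here give neither their roles nor other versions nor the strand setting. The deposited series table has counts and FPKM values of 36780 transcripts, per the file headers; the counts are whole and not normalized. The bone marrow sample files repeat that table, and those of blood and lung hold RSEM expected counts and TPM, per the file headers. All columns of per-sample values were mapped (0 left out).

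Counts were summed by gene to 24532 genes, and filterByExpr kept 13510. Counts of all 9 libraries were TMM-scaled and entered 1 group-mean model in edgeR 4.0.16 (quasi-likelihood with robust fitting, two-sided, Benjamini-Hochberg over all genes, threshold 0.05); an SE was taken from each log2 fold change and its F statistic. The common biological coefficient of variation was 0.448. Alternatives were upper-quartile and DESeq2 scaling, DESeq2 1.42.0, limma-voom and limma 3.58.1 on log2(FPKM + 0.1), other filters, a replicate block, the 6 libraries compared, rounded RSEM expected counts (lung against blood) and leaving out each library. The fit was checked on simulated data. Scripts ran in Python 3.11.15 (pandas 2.3.3, matplotlib 3.10.9, numpy 2.4.6) and R 4.3.3.

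The receptors and lists were chosen with earlier results of these data known. Named list genes were those that passed, at 5 CPM or more in the higher tissue and without overlap of replicates, up to 3 per list and comparison by size of change, plus other nuclear receptors that passed. Promoters are from RefSeq. Nr3c1 has no sequence shown. A few genes that the rule named are not reported here.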

Additional observations from a re-analysis of the deposited data

How the results depend on the processing

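The receptors were chosen on these values, so the counts of receptors called describe the settings only. Receptors called between blood and marrow numbered 3, and 5 by DESeq2's Wald test and by limma on log2(FPKM + 0.1), and 2 to 3 when 1 library was left out. Between lung and blood the number was 5, and 3 to 7 without 1 library. Between lung and marrow it was 8, but 5 with DESeq2 size factors, 5 with no filter on low counts, 4 at 1 CPM in every library of a tissue (where Nr1h3 and Vdr were not tested) and 5 to 8 without 1 library. The cause was not tested.

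Genes called numbered 2892, 3900 and 5158 in the 3 comparisons, and 1236 to 3965, 1922 to 5852 and 3258 to 6984 without 1 library. Pathway genes called numbered 36, 64 and 81, and 14 to 46, 42 to 98 and 48 to 107. The lowest counts came without blood replicate 2, blood replicate 3 and marrow replicate 2, and the highest without lung replicate 3. Of 124 calls of named list genes, 62 were kept in every alternative and 56 were lost without at least 1 library; 0 reversed.

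Replicate numbers are shared across tissues. After subtracting each tissue's mean, correlations were 0.05 to 0.52 in 9 same-numbered pairs and -0.50 to 0.45 in 18 others, with 13 of 18 best matches to the own number. Same-numbered lung and blood (0.13 to 0.52) and lung and marrow (0.15 to 0.19) libraries all correlated above 0.1, and blood and marrow at 0.05 to 0.38. The model covers all 3 tissues and not every pair passed 0.1, so the samples were taken to share only a number, and whether they are paired is not known. With the replicate block, genes called numbered 3990, 4751 and 5973, receptors 4 (Rarg added), 5 and 8, and pathway genes 46, 71 and 87. Depth limits Nr1h3 and Vdr outside the lung, with at most 41 reads per library.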
